A study of Mus musculus with 13 samples.

Results

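The genes described here are Trp53, which encodes the transcription factor p53, its inhibitor gene Mdm2, and 29 genes listed as established p53 targets, 31 of the 23366 genes in the table. Whether each of the 29 is a p53 target in these mouse cells was not tested. The 31 were chosen by name as textbook members of the pathway, not by a rule on their levels, although earlier results of these data were known. Tigar appears in the table under its older name 9630033F20Rik. All 31 had enough counts to be tested among 16537 genes. The study sequenced RNA of mouse primary muscle cells, from hind limb muscle of mixed-strain pups aged 2 to 3 days, to compare cells with and without normal imprinting at the Igf2 and H19 genes. Wild-type primary myoblasts (4 libraries) and dICR/dICR primary myoblasts (2 libraries) were grown in medium with 10% calf serum and fibroblast growth factor. Wild-type myotubes (5 libraries) and dICR/dICR myotubes (2 libraries) had been moved to medium with 1% horse serum for 24 hours. dICR/dICR cells carry, on both chromosomes, a deletion of the imprinting control region between Igf2 and H19, and no other allele or agent is named. The labels do not say whether libraries of a group came from separate pups or cultures, so every p-value reflects the spread between these samples alone, which may be technical.

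p53 is a short-lived protein that is stabilised by DNA damage and other stress and then binds DNA to raise transcription of its target genes. Mdm2 is itself such a target, and its protein marks p53 for destruction, which closes a feedback loop. Other targets halt the cell cycle, repair DNA, limit oxidative damage or lead a cell to death, and in muscle precursors p53 has been linked to the balance between division, differentiation and death. Because p53 is controlled mainly as a protein, the level of Trp53 RNA is not a measure of its activity.

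The sequences below show where the letters bound by p53 occur next to members whose levels are described afterwards. p53 binds pairs of a palindromic decamer, and the p53 consensus decamer was searched in windows from 250 bases before to 50 bases after each gene's start in the RefSeq promoter table (build GRCm38.p6). The decamer reads the same on both strands, so 1 search covers both. Of the 31 members, 22 matched the table, and 10 of these (45.5%) held a decamer, against 2582 of 27025 genes (9.6%). Counted by window, 11 of 28 member windows (39.3%) and 8.36% of all windows held one. The 10 members were Trp53, Mdm2, Bax, Aen, Ei24, Gadd45a, Ccng1, Gtse1, Polk and Sesn1. Pmaip1, Perp, Tnfrsf10b, Trp53inp1, Zmat3, Ptprv, Ddb2, Xpc and Rrm2b had no entry. In the 7 stretches below, written 5′ to 3′ on the gene's own strand, the capitals mark the decamer, with up to 25 bases on each side.
Trp53: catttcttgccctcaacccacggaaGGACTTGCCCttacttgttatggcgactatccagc
Mdm2: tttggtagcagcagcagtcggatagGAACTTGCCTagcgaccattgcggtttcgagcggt
Ccng1: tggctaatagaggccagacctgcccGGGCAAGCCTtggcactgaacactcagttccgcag
Bax: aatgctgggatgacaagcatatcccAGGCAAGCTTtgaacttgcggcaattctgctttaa
Ei24: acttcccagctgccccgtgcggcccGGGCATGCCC
Polk: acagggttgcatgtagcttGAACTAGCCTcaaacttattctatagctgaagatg
Sesn1: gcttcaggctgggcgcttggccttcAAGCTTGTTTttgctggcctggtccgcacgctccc
The Trp53 stretch lies on the plus strand at chr11:69580259-69580318, and its decamer begins 75 bases before the start. The Mdm2 stretch lies on the minus strand at chr10:117710910-117710969, with the decamer 186 bases before the start. That of Ccng1 (minus strand, chr11:40755437-40755496) begins 185 bases before, and that of Bax (minus strand, chr7:45467065-45467124) 201 bases before. The Ei24 decamer (minus strand, chr9:36797335-36797369) begins 10 bases before the start, the Polk decamer (minus strand, chr13:96519384-96519437) 231 bases before, and the Sesn1 decamer (plus strand, chr10:41887241-41887300) 173 bases before. A pair of adjacent decamers with at most 1 mismatch in 20 letters occurred for Ccng1 and Gtse1, and for 29 genes in all (0.11%). A match describes letters only: no binding was measured here.

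Libraries held 5.313 to 56.44 M (mega) counts and fell in a deep set of 7 (35.56 M and above) and a shallow set of 6 (10.91 M and below), a split seen in the totals. The labels name 2 sequencing platforms, SOLiD (reads of 35 and 75 bases) and Illumina (read pairs of 101 bases), but not which library was run on which, so whether the sets are the platforms is not known. Wild-type myoblasts 1 and 2 and wild-type myotubes 1 to 3 were deep, wild-type myoblasts 3 and 4 and wild-type myotubes 4 and 5 shallow, both dICR/dICR myoblasts shallow and both dICR/dICR myotubes deep. The sets also differed in small nucleolar RNA genes (0.01178 to 0.1325% of counts in deep libraries, 2.786 to 7.131% in shallow ones). H19, the noncoding RNA gene that the deleted region controls, stood at 2345 to 40495 CPM in wild type and at 52.4 to 71.5 CPM in dICR/dICR, lower in each dICR/dICR library than in each wild-type library. CPM are counts scaled to a common library total after TMM adjustment. All 6 myoblast markers and all 7 differentiating muscle markers had counts in every library. The myoblast marker Msc, however, held only 0.01865 to 0.9122 CPM in the myoblast libraries. The differentiating muscle markers summed to 1864 to 12100 CPM in myoblasts and 9936 to 43240 CPM in myotubes. Markers of macrophages, endothelium, adipocytes, Schwann cells and erythroid cells summed to at most 7.622 CPM in any library. Fibroblast markers summed to 94.97 to 918.1 CPM, with Lum or Dcn at 0 in some libraries. In each bulk library, fewer cells of a type and less RNA per cell cannot be told apart.

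Trp53 RNA was most abundant in the deep wild-type myoblasts and least abundant in the shallow wild-type myotubes. Wild-type myoblasts 1 to 4 held 97.0, 118, 16.5 and 24.1 CPM, and wild-type myotubes 1 to 5 held 15.6, 49.3, 32.3, 8.62 and 5.91 CPM. The dICR/dICR libraries held 22.05 and 29.5 CPM as myoblasts and 63.1 and 54.1 CPM as myotubes. Within each wild-type stage the shallow libraries were the lowest, and wild-type myotube 1 was the lowest of the deep myotubes. The log2 difference of shallow from deep wild-type libraries was -2.28 ± 0.31 (SE, adjusted p = 0.000242, edgeR). Reads may be shared with the pseudogene Trp53-ps, so the Trp53 level is uncertain to that extent.

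Mdm2, whose protein removes p53, held 1152, 1105, 498 and 399 CPM in wild-type myoblasts against 383, 243, 366, 287 and 295 CPM in wild-type myotubes. Each wild-type myotube library lay below each wild-type myoblast library. The dICR/dICR values were 722 and 176 CPM in myoblasts and 181 and 313 CPM in myotubes, so in each stage 1 dICR/dICR library lay within the wild-type range and 1 below it. The 2 dICR/dICR myoblasts were farther apart than any of the wild-type myotubes.

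Per kilobase of exon, the most abundant member in all 4 groups was Ccng1, a cyclin-family gene that is among the strongest p53 targets, with group means from 191.3 CPM per kb in dICR/dICR myotubes to 524.1 CPM per kb in wild-type myoblasts. In wild-type myoblasts it was followed by Mdm2 (155.1 CPM per kb), Phlda3, a repressor of AKT signalling (148.2 CPM per kb), and the mitochondrial death effector gene Bax (107.6 CPM per kb). The ranges over libraries of these 3 overlapped, at 78.54 to 226.6, 112.7 to 179.2 and 75.44 to 142.6 CPM per kb. In wild-type myotubes the order after Ccng1 was Phlda3 (133.2 CPM per kb), the death receptor gene Eda2r (119.6 CPM per kb) and Pmaip1, the gene of the BH3-only protein Noxa (80.96 CPM per kb), again with overlapping ranges. The least abundant members in wild-type myoblasts were Ddb2, a sensor of ultraviolet damage (0.8042 CPM per kb), and Dram1, a lysosomal regulator of autophagy (1.133 CPM per kb).

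**Figure D1:**
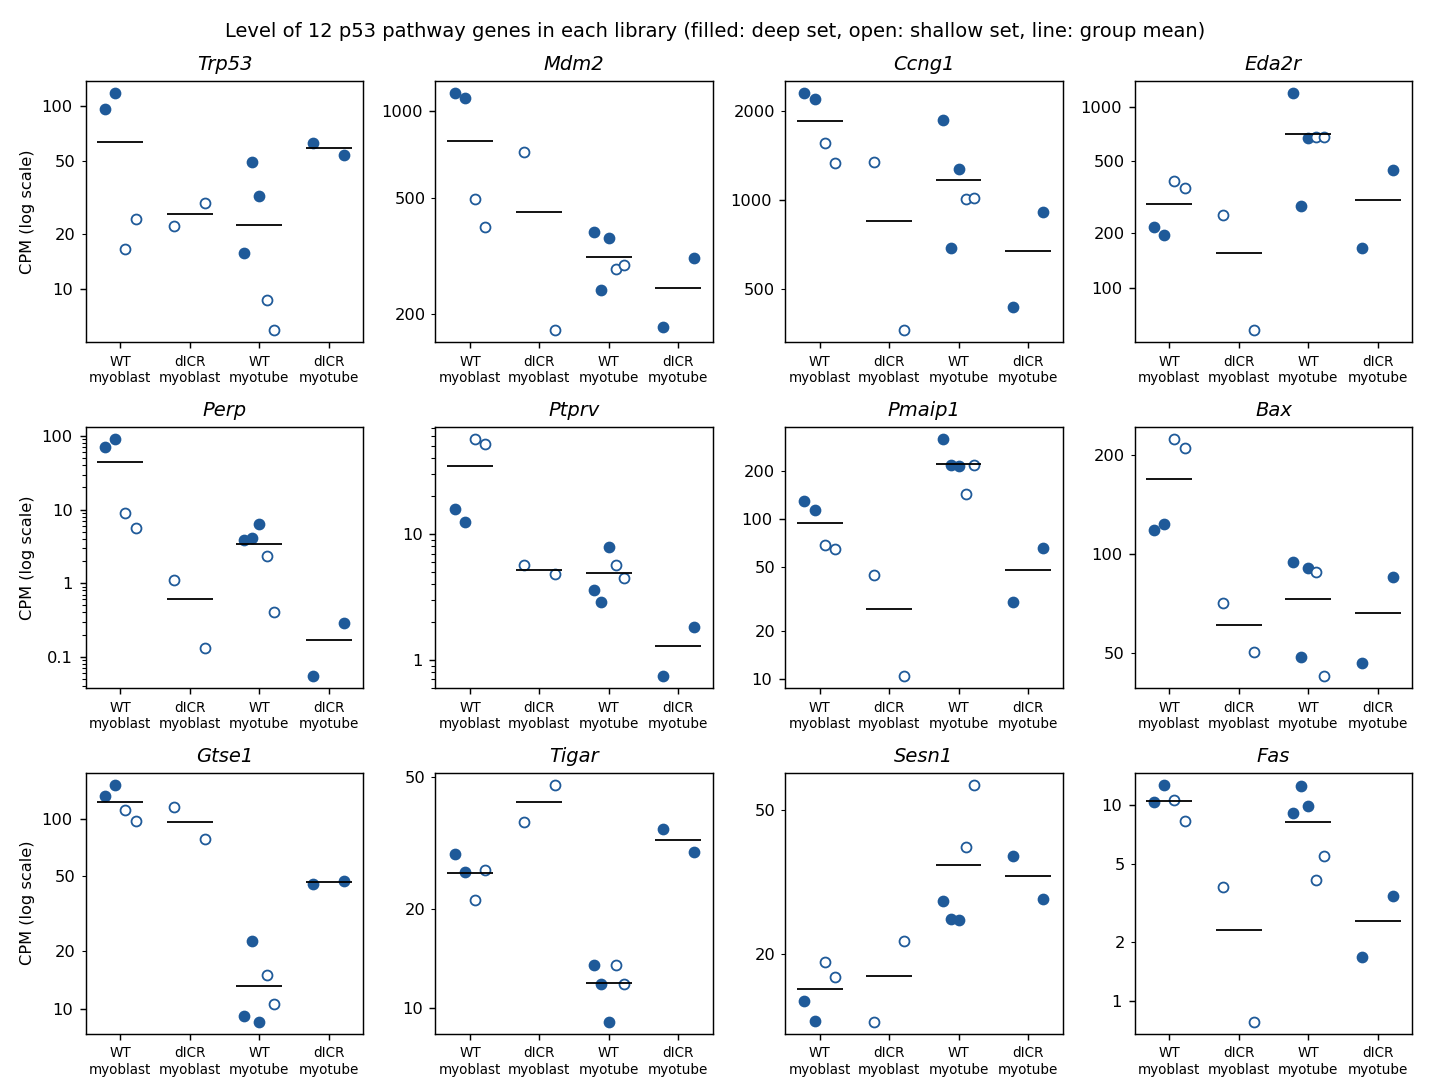
CPM on a log scale for 12 members in the 13 libraries, with filled points for deep libraries, open points for shallow ones and a line at each group mean. Perp, Fas and Ptprv sit lower in both dICR/dICR groups than in the wild-type group of the same stage, while Tigar sits higher.

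Differentiation of wild-type cells asks how the pathway stands once myoblasts have become myotubes. Most members were lower in myotubes: 10 of 31 fell, 1 rose (Sesn1), and 24 had negative values, with a median log2 change of -0.707 against 0.0198 over all genes tested. Among all genes 10.2% fell and 8.86% rose, so the share of members that fell was above the background and the share that rose was below it. The members that fell span death (4 of 14), growth arrest and the cell cycle (3 of 7), repair (1 of 5), metabolism (1 of 3) and Mdm2. At an unadjusted p under 0.05 there were 16 (51.6%, against 33.2% of all genes), and DESeq2 called 14. For DESeq2 calls, here and below, no share of all genes is given, so they cannot be set against a background. The count of 11 was 7 without wild-type myoblast 2. These are edgeR quasi-likelihood tests with Benjamini-Hochberg adjustment over all genes, with adjusted p under 0.05 as the threshold.

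Gtse1, whose product moves p53 out of the nucleus in dividing cells, had the smallest p. It held 132, 151, 111 and 97.3 CPM in wild-type myoblasts against 9.14, 22.6, 8.51, 15.1 and 10.6 CPM in wild-type myotubes. The groups were far apart, and wild-type myotube 2 was the highest of its group. The log2 fold change was -3.22 ± 0.30 (adjusted p = 0.000287). Gtse1 is itself a gene of dividing cells, and the 15 proliferation markers moved with it: their summed level was 1239 to 3268 CPM in wild-type myoblasts against 93.5 to 1542 CPM in wild-type myotubes, with the highest myotube value in wild-type myotube 2. Their part in the Gtse1 result was not tested.

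The other growth-control genes that fell were Plk3, a stress-activated kinase of the polo family, and Ptprv, a phosphatase gene that mediates p53-dependent arrest in mice. Plk3 held 51.5, 55.6, 13.3 and 13.8 CPM in wild-type myoblasts against 4.11, 10.4, 8.39, 4.62 and 2.65 CPM in wild-type myotubes. The 2 ranges did not overlap, although the shallow myoblasts stood near the highest myotube. Its log2 fold change was -2.46 ± 0.51 (adjusted p = 0.00705). Ptprv held 15.8, 12.6, 57.1 and 52.1 CPM in wild-type myoblasts against 3.58, 2.86, 7.84, 5.69 and 4.48 CPM in wild-type myotubes. Here the shallow myoblasts were the high ones, and all 5 myotubes lay below all 4 myoblasts. The log2 fold change was -2.81 ± 0.50 (adjusted p = 0.00375). The other 4 genes of this group, Gadd45a, Ccng1, Btg2 and Plk2, did not pass over all libraries.

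Among the death genes Perp, which encodes a membrane protein of desmosomes needed for p53-dependent death, had the largest value. It held 71.7, 92.1, 9.13 and 5.67 CPM in wild-type myoblasts against 3.85, 4.16, 6.28, 2.31 and 0.407 CPM in wild-type myotubes. The deep myoblasts stood far above the other libraries, and wild-type myoblast 4 lay below wild-type myotube 3. The log2 fold change was -3.66 ± 0.88 (adjusted p = 0.0147), and it was -3.03 without wild-type myoblast 2, where the call was lost (adjusted p = 0.0505). The lowest value, in wild-type myotube 5, rests on 2 counts, for which the exact 95% Poisson interval is 0.0493 to 1.47 CPM and covers counting error only.

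Apaf1, the scaffold of the apoptosome, fell from 143, 133, 141 and 118 CPM in wild-type myoblasts to 72.7, 57.5, 42.4, 44.8 and 37.3 CPM in wild-type myotubes. Every myotube lay below every myoblast, at a log2 fold change of -1.39 ± 0.26 (adjusted p = 0.00421). Bax held 119, 124, 225 and 211 CPM in wild-type myoblasts against 94.4, 48.8, 91.0, 88.0 and 42.6 CPM in wild-type myotubes. Its groups were also apart, with the shallow myoblasts highest, and the log2 fold change was -1.22 ± 0.32 (adjusted p = 0.0206, and 0.0539 without wild-type myoblast 3). Ei24, a gene of the endoplasmic reticulum linked to autophagy and death, held 133, 130.2, 122 and 113 CPM against 84.7, 60.8, 73.7, 80.3 and 81.3 CPM in myotubes. The groups did not overlap, but its value of -0.71 ± 0.22 (adjusted p = 0.0422) was near the threshold and the call was lost without any 1 of the 9 wild-type libraries, where adjusted p was 0.0555 to 0.097. Counts of Bax and Ei24 are uncertain because each overlaps exons of another gene model, Gm45808 and Gm26787, and the same holds for Plk3 (Tctex1d4), Ptprv (Gm10535), Gadd45a (E230016M11Rik), Ddb2 (Acp2), Rrm2b (Gm49085) and Tigar (Platr31) on the opposite strand, since the strand setting of the counting is not known.

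Mdm2 had a log2 fold change of -1.32 ± 0.43 (adjusted p = 0.0474), a call near the threshold that was lost without either deep myoblast, any wild-type myotube or either dICR/dICR myotube, with log2 changes from -1.54 to -1.08 over all left-out libraries. The Trp53 value of -1.51 ± 0.66 did not pass (adjusted p = 0.133). In wild-type cells the RNA of p53 and of its inhibitor were thus both lower on average in myotubes, and only Mdm2 passed this test.

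Polk, a DNA polymerase that copies past damaged bases, fell from 106, 92.0, 54.4 and 54.7 CPM to 27.5, 20.3, 26.2, 21.1 and 27.3 CPM, with no overlap. The log2 fold change was -1.65 ± 0.30 (adjusted p = 0.004). Tigar, which encodes a fructose bisphosphatase that steers glucose toward NADPH production, fell from 29.3, 25.9, 21.2 and 26.2 CPM to 13.5, 11.9, 9.11, 13.5 and 11.8 CPM. Its groups were tight and apart, at -1.10 ± 0.18 (adjusted p = 0.0023). Sesn1, a stress-induced inhibitor of mTORC1 signalling, was the single member that rose, from 14.9, 13.1, 19.1 and 17.3 CPM to 28.0, 25.04, 24.9, 39.4 and 58.7 CPM. All myotubes lay above all myoblasts, with the shallow myotubes highest, at 1.13 ± 0.29 (adjusted p = 0.0196). The call for Sesn1 was lost without either deep wild-type myoblast (adjusted p = 0.0612 and 0.0674).

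The 19 members without a named value in this comparison had log2 changes from -1.30 (Sesn2, the sestrin related to Sesn1) to 1.28 (Eda2r). None of these 19 passed over all libraries. Eda2r held 216, 196, 389 and 357 CPM in wild-type myoblasts against 1197, 285, 675, 686 and 681 CPM in wild-type myotubes. Wild-type myotube 2 stood within the myoblast range and the other 4 myotubes above it, and its adjusted p was 0.0938. Pmaip1 was likewise higher in myotubes on average, with 129, 113, 69.1 and 64.3 CPM in myoblasts and 316, 215, 214, 143 and 218 CPM in myotubes. These groups did not overlap, and the log2 change of 1.23 ± 0.42 missed the threshold (adjusted p = 0.0565).

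The deep and shallow wild-type libraries allow the same comparison in separate samples, 3 myotubes against 2 myoblasts and 2 against 2. The direction was shared by 29 of 31 members (93.5%), 23 lower and 6 higher in both sets, against 71.9% of all genes tested. Within the deep set 10 members fell and 2 rose, against 14.7% and 14.3% of all genes. Within the shallow set 5 fell and 1 rose, against 3.25% and 3.72% of all genes. The 5 members called in both were Apaf1, Gtse1, Plk3, Ptprv and Sesn1, which are 41.7% of the deep calls and 83.3% of the shallow calls. Over all genes the shared calls were 18.9% and 78.7%.

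Some sizes differed between the sets. Ptprv changed by -1.57 ± 0.43 in the deep set (adjusted p = 0.0181) and by -3.42 ± 0.54 in the shallow set (adjusted p = 0.0066). Perp changed by -4.10 ± 0.59 in the deep set (adjusted p = 0.000553) and had -2.37 ± 0.77 in the shallow set (adjusted p = 0.0824). Trp53 fell by 1.73 ± 0.38 on the log2 scale in the deep set (adjusted p = 0.0061) and had -1.47 ± 0.46 within the shallow set (adjusted p = 0.0759). Whether the 2 sets differ in any of these changes was not tested. Mdm2 fell within the deep set (-1.77 ± 0.45, adjusted p = 0.0128) and had -0.62 ± 0.50 in the shallow set, while Bax fell within the shallow set (-1.74 ± 0.41, adjusted p = 0.0287) and had -0.64 ± 0.36 in the deep set. Gadd45a, a gene of growth arrest and DNA repair, rose within the deep set (1.25 ± 0.33, adjusted p = 0.0159), where wild-type myoblasts held 51.2 and 52.4 CPM and myotubes 162, 69.1 and 139.5 CPM. The shallow myoblasts, with 144 and 127 CPM, already stood in the range of the shallow myotubes, with 186 and 106 CPM. Shallow wild-type myoblasts also held more of the differentiating muscle markers, at 11520 and 12100 CPM against 2563 and 2527 CPM in deep ones. The part of these markers in the differences between sets was not tested.

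**Figure D2:**
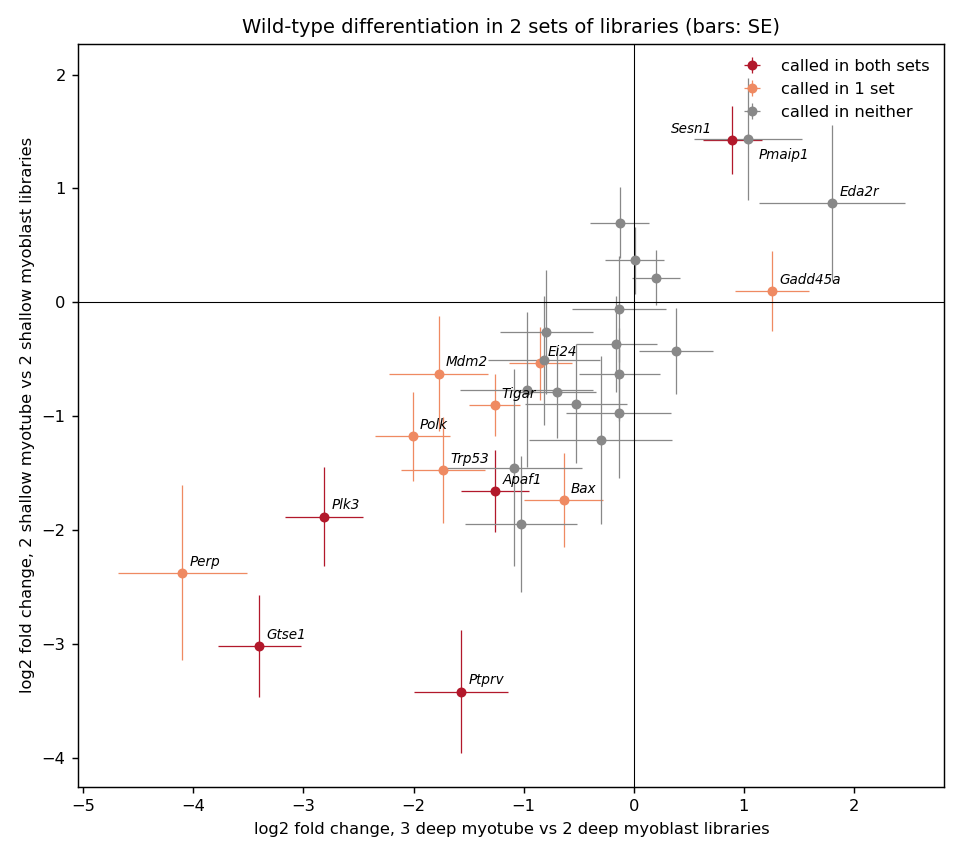
Log2 fold change of each member from wild-type myoblasts to myotubes, in the deep libraries (horizontal) and in the shallow libraries (vertical), with SE bars. Most points lie in the lower left, with Gtse1, Plk3, Ptprv and Apaf1 called lower in both sets and Sesn1 called higher in both.

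The genotype effect in myoblasts asks whether the pathway differs without normal imprinting before differentiation. Over all 6 myoblast libraries no member was called by edgeR, against 0.0302% of all genes (5 genes). At an unadjusted p under 0.05 there were 9 (29.0%, against 12.1% of all genes), and DESeq2 called 4 (Perp, Fas and Ptprv lower, Tigar higher). The values leaned low: 26 of 31 were negative, with a median of -0.812 against -0.0588 over all genes. Both dICR/dICR libraries lay below all 4 wild-type myoblasts for 11 members (14.3% of all genes did so) and above them for 2, Ddb2 and Tigar (14.2% of all genes). The 11 were Bax, Pmaip1, Perp, Fas, Tnfrsf10b, Aen, Ei24, Trp53inp1, Ptprv, Ercc5 and Sesn2. Of these, 8 are death genes, a role held by 14 of the 31 members.

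Perp held 1.09 and 0.130 CPM in dICR/dICR myoblasts against the 5.67 to 92.1 CPM of wild type given above. Its value was -6.07 ± 1.54 over all libraries (adjusted p = 0.174), and within the shallow set Perp fell by 3.43 ± 0.79 on the log2 scale (adjusted p = 0.0319). The lower of the dICR/dICR values rests on 1 count (exact 95% interval 0.0033 to 0.726 CPM). The gap over all libraries was larger than the gap within the shallow set, since the deep myoblasts held most Perp.

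Ptprv, with 5.63 and 4.82 CPM in dICR/dICR myoblasts, lay below the 12.6 to 57.1 CPM of wild type. The value was -2.71 ± 0.72 over all libraries (adjusted p = 0.19) and -3.38 ± 0.53 within the shallow set, where Ptprv fell (adjusted p = 0.00808). Bax held 71.2 and 50.3 CPM against 119 to 225 CPM in wild type. It had -1.48 ± 0.44 over all libraries (adjusted p = 0.224) and fell within the shallow set (-1.84 ± 0.41, adjusted p = 0.0289). Gadd45a held 52.5 and 47.3 CPM, near the deep wild-type myoblasts and well below the shallow ones. Accordingly its value was -0.91 ± 0.48 over all libraries (adjusted p = 0.454) and -1.44 ± 0.36 within the shallow set (adjusted p = 0.0427).

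Fas, the receptor of the extrinsic death pathway, held 3.83 and 0.782 CPM in dICR/dICR myoblasts and 10.4, 12.8, 10.6 and 8.27 CPM in wild type. The groups were apart, at -2.16 ± 0.63 over all libraries (adjusted p = 0.222) and -1.98 ± 0.58 within the shallow set (adjusted p = 0.0707). Pmaip1 held 44.5 and 10.4 CPM against 64.3 to 129 CPM. It had -1.77 ± 0.57 over all libraries (adjusted p = 0.259) and -1.27 ± 0.54 within the shallow set (adjusted p = 0.193). Neither gene passed in either form of this comparison. Without dICR/dICR myoblast 1 and then without dICR/dICR myoblast 2 the values were -3.75 and -1.46 for Fas and -3.18 and -1.08 for Pmaip1.

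Trp53 itself had -1.32 ± 0.91 over all libraries (adjusted p = 0.551) and 0.34 ± 0.43 within the shallow set (adjusted p = 0.707). Mdm2 had -0.81 ± 0.57 over all libraries (adjusted p = 0.558) and 0.003 ± 0.50 within the shallow set. The 25 members other than the 6 named above, Trp53 and Mdm2 among them, ranged from -1.39 (Tnfrsf10b, the death receptor for TRAIL) to 0.75 (Dram1). Within the shallow set 0 members rose and 4 fell, against 1.94% and 3.31% of all genes, 12 had an unadjusted p under 0.05 (38.7%, against 22.2% of all genes), and the median was -0.641 against 0.0105 over all genes. In that set genotype coincides with other measured differences. The Y-linked gene Ddx3y stood at 0.247 and 0.153 CPM in its wild-type libraries, whereas the dICR/dICR libraries held 14.5 and 63.1 CPM. Xist, the RNA of X inactivation, did not separate them, at 220 and 303 CPM in wild type and 428 and 57.5 CPM in dICR/dICR. Genotype and Y-linked expression cannot be told apart there. The proliferation markers summed to 1239 and 1323 CPM in wild type and 2928 and 3144 CPM in dICR/dICR, and the differentiating muscle markers to 11520 and 12100 CPM in wild type and 3796 and 1864 CPM in dICR/dICR. The part of either marker list in these results was not tested.

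The genotype effect in myotubes makes the same comparison after 24 hours of differentiation. Tigar and Gtse1 rose in dICR/dICR myotubes and no member fell, against 0.333% and 0.224% of all genes. The count of 2 was 0 without either dICR/dICR myotube, 4 without wild-type myotube 2 and 1 without any other library. At an unadjusted p under 0.05 there were 8 members (25.8%, against 16.8% of all genes), and DESeq2 called 7: it added Pmaip1, Perp, Fas, Ptprv and Xpc, all lower. The shares of 0.333% and 0.224% are of edgeR calls, and none is given for DESeq2. Over the 31 members the median was -0.337 against -0.0562 over all genes. Both dICR/dICR libraries lay above all 5 wild-type myotubes for 4 members (Trp53, Apaf1, Gtse1 and Tigar, 10.5% of all genes) and below them for 5 (Pmaip1, Perp, Fas, Ptprv and Xpc, 8.76% of all genes).

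Tigar held 34.8 and 29.7 CPM in dICR/dICR myotubes against 9.11 to 13.5 CPM in wild type. The gap between the groups was wider than the range within either, at a log2 fold change of 1.43 ± 0.21 (adjusted p = 0.0181), and 1.49 ± 0.23 within the deep set (adjusted p = 0.00787). The call was lost without dICR/dICR myotube 1 (1.31, adjusted p = 0.43) or dICR/dICR myotube 2 (1.54, adjusted p = 0.0633), each of which leaves 1 library assumed to vary like the other groups. The same gene lay above wild type in dICR/dICR myoblasts, at 36.7 and 47.4 CPM against 21.2 to 29.3 CPM, without a call (0.71 ± 0.23, adjusted p = 0.25).

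Gtse1 held 45.1 and 47.1 CPM in dICR/dICR myotubes against 8.51 to 22.6 CPM in wild type. The log2 fold change was 1.80 ± 0.33 (adjusted p = 0.0393), and 1.78 ± 0.37 within the deep set (adjusted p = 0.025). This call was lost without any 1 of the libraries other than wild-type myotube 2, with adjusted p from 0.0522 to 0.504 and log2 changes from 1.65 to 1.85. The proliferation markers summed to 1425 and 3113 CPM in dICR/dICR myotubes and to 93.5 to 1542 CPM in wild type, where wild-type myotube 2 was the highest library both for them and for Gtse1. The proliferation markers thus overlapped between the genotypes. The differentiating muscle markers did not, at 9936 and 17970 CPM in dICR/dICR myotubes and 22510 to 43240 CPM in wild type. The part of either marker list in the myotube results was not tested.

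Of the 14 death genes none was called over all libraries, and Pmaip1 and Perp fell within the deep set. Over all libraries 4 of the 14 had positive log2 values, among them Apaf1 (0.80) and Dram1 (1.08), and 10 had negative ones. Pmaip1 held 30.1 and 65.7 CPM against 143 to 316 CPM in wild type. The groups were well apart, and the value was -2.21 ± 0.57 over all libraries (adjusted p = 0.0971) and -2.38 ± 0.52 within the deep set, where Pmaip1 fell (adjusted p = 0.0339). Perp held 0.0545 and 0.285 CPM, from 3 and 12 counts, against 0.407 to 6.28 CPM. It had -4.40 ± 1.41 over all libraries (adjusted p = 0.165) and fell within the deep set (-4.85 ± 0.77, adjusted p = 0.00852). The exact 95% interval for the value from 3 counts was 0.0112 to 0.159 CPM.

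Fas held 1.67 and 3.45 CPM against 4.16 to 12.5 CPM in wild-type myotubes. Its values were -1.70 ± 0.59 over all libraries (adjusted p = 0.191) and -2.04 ± 0.52 within the deep set (adjusted p = 0.0544). Ptprv held 0.745 and 1.83 CPM against 2.86 to 7.84 CPM, with -1.93 ± 0.68 over all libraries (adjusted p = 0.197) and -1.90 ± 0.48 within the deep set (adjusted p = 0.0512). Both groups were apart for both genes, and neither gene passed. Trp53 had 1.38 ± 0.78 over all libraries (adjusted p = 0.386) and 0.85 ± 0.38 within the deep set (adjusted p = 0.22), and Mdm2 had -0.35 ± 0.54 and -0.42 ± 0.46 (adjusted p = 0.771 and 0.634). The 25 members not named in this comparison, Trp53 and Mdm2 among them, ranged from -1.20 (Eda2r) to 1.38 (Trp53). Within the deep set 2 members rose and 2 fell, against 1.81% and 1.83% of all genes, with 10 at an unadjusted p under 0.05 (32.3%, against 21.3% of all genes) and a median of -0.259 against -0.0348 over all genes.

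**Figure D3:**
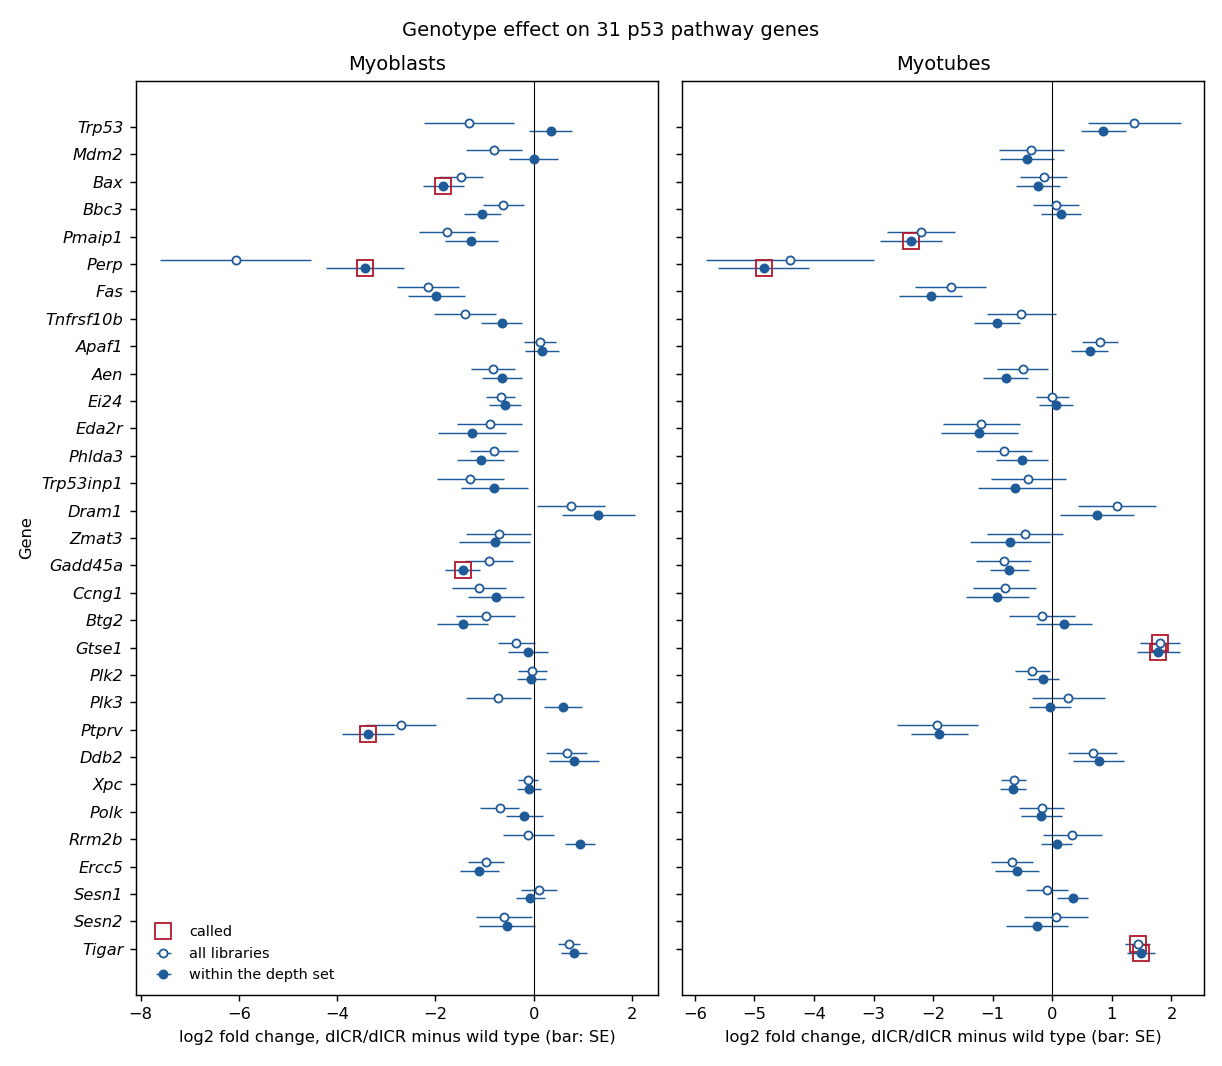
Log2 difference of dICR/dICR from wild type for each of the 31 members in myoblasts (left) and myotubes (right), over all libraries (open) and within the depth set that holds both genotypes (filled), with SE bars and squares around called values. Perp has the lowest value in both panels, and Tigar and Gtse1 are the squares to the right of 0 in myotubes.

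Differentiation of dICR/dICR cells compares 2 myotube libraries, both deep, with 2 myoblast libraries, both shallow, so stage and depth set cannot be told apart. No member was called by edgeR, against 0.145% of all genes. There were 3 at an unadjusted p under 0.05 (9.68%, below the 19.2% of all genes) and 0 by DESeq2, and the median was -0.15 against 0.00232 over all genes. Ptprv had -2.02 ± 0.76 (adjusted p = 0.204), Polk -1.14 ± 0.45 (adjusted p = 0.215, and a log2 change of -0.32 without dICR/dICR myoblast 1), Plk3 -1.47 ± 0.75 (adjusted p = 0.297) and Perp -1.99 ± 1.56 (adjusted p = 0.495), which turned to 0.33 without the same library. The Trp53 value was 1.19 ± 1.00 (adjusted p = 0.527), with both dICR/dICR myotubes above both dICR/dICR myoblasts. That sign is opposite to wild type, and it turned to -1.09 (adjusted p = 0.211) when the depth set was entered as a term. With that term Perp (-4.75, adjusted p = 0.0279) and Plk3 (-2.98, adjusted p = 0.0082) fell and Sesn1 (1.60, adjusted p = 0.0224) rose. Over all 16537 genes tested 469 fell and 793 rose with it. Only the wild-type groups hold both depth sets, so the term, here and below, takes its size from them. It assumes the same depth difference in dICR/dICR cells, which was not tested, so it does not separate stage from depth set.

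Whether the 2 genotypes differ in their change was tested directly. No gene was called by edgeR, member or other (0% of all genes). An unadjusted p under 0.05 was found for 4 members and for 9.94% of all genes, and DESeq2 called 0 members. Gtse1 had a difference between the changes of 2.15 ± 0.52, Bax 1.33 ± 0.57 and Trp53 2.69 ± 1.21 (adjusted p = 0.495 for each of the 3). The Trp53 value was 0.54 ± 0.57 once the depth set was a term (adjusted p = 0.767), and Gtse1 and Bax then had 1.93 and 1.51. Plk3 had 0.99 ± 0.89 (adjusted p = 0.681) and Perp 1.67 ± 1.81 (adjusted p = 0.735), and these turned to -0.54 and -1.22 once the depth set was a term. A positive value means a less negative or more positive change in dICR/dICR, and the median over members was 0.46 against 0.0375 over all genes, with 26 of 31 members positive. With the depth set entered as a term the median was 0.0936 and 18 members were positive. The genotype and differentiation comparisons share libraries, so their values are not independent of each other.

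**Figure D4:**
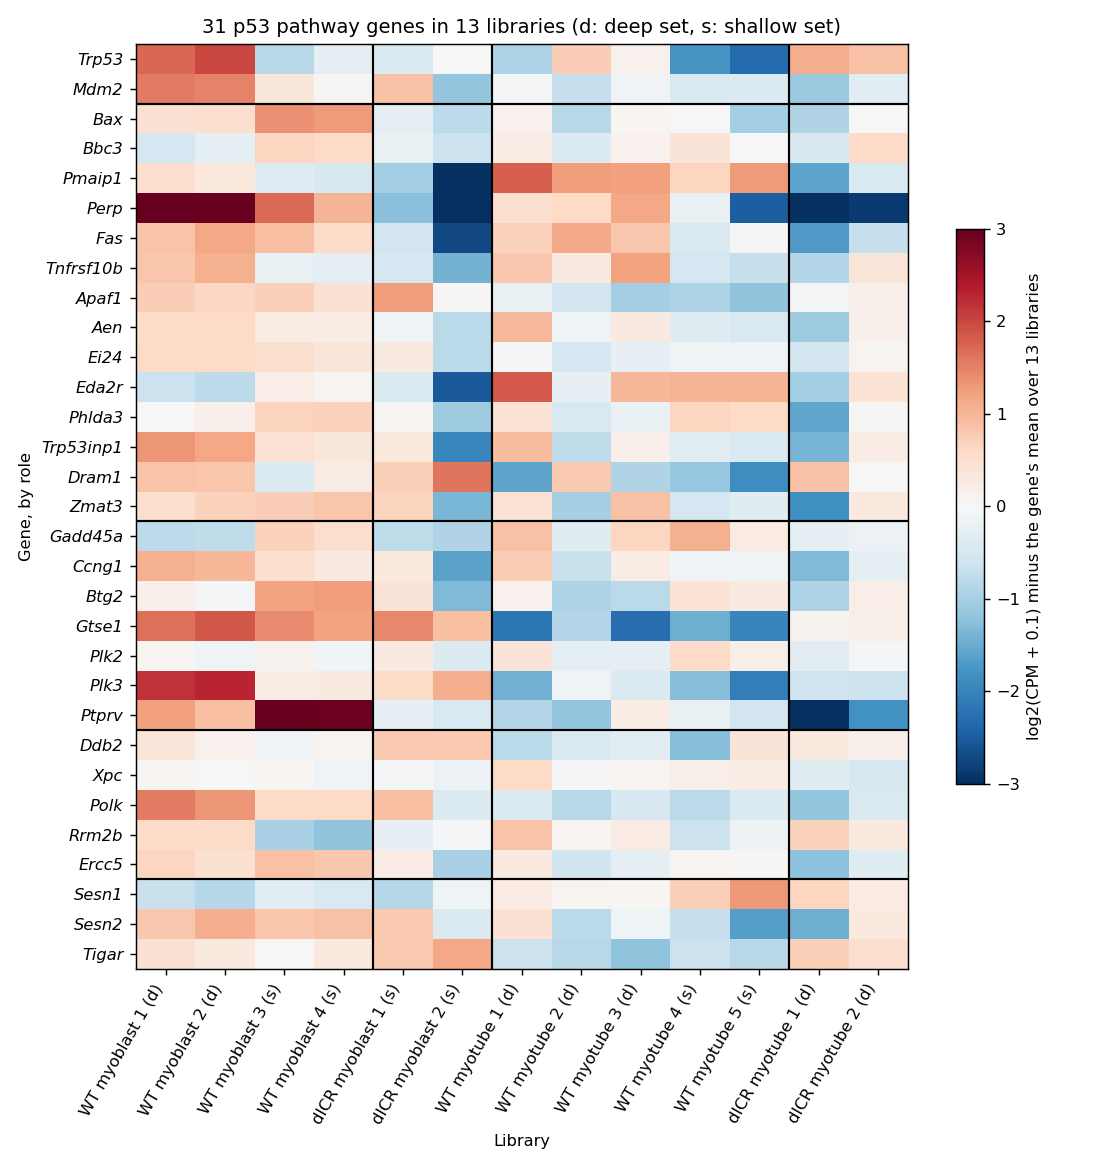
Level of each of the 31 members in each library as log2(CPM + 0.1) minus the gene's mean over the 13 libraries, with genes ordered by role and libraries by group (d, deep; s, shallow). Columns for dICR/dICR myoblast 2 and dICR/dICR myotube 1 are blue for most members, while dICR/dICR myoblast 1 and dICR/dICR myotube 2 are nearer to white.

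The 2 dICR/dICR libraries of each stage differed from each other across most of the pathway, a pattern that was chosen for description after the values were seen. In dICR/dICR myoblast 2, 24 of 31 members were lower than in dICR/dICR myoblast 1 and 15 were more than 2-fold lower, with a median log2 ratio of -0.875. Over all genes tested 51.6% were lower, 9.95% more than 2-fold, and the median was -0.0245. In dICR/dICR myotube 1, 23 members were lower than in dICR/dICR myotube 2 and 14 more than 2-fold, with a median of -0.869, against 47.6% and 7.64% of all genes and a median of 0.00623. The same direction was seen in both stages for 23 members that were lower (74.2%, against 31.9% of all genes) and 7 that were higher (against 5199 of 16537 genes). In both stages 10 were more than 2-fold lower (32.3%, against 2.93% of all genes).

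Ccng1 shows the pattern at high counts, with 1336 CPM in dICR/dICR myoblast 1 against 362 CPM in myoblast 2 and 909 CPM in dICR/dICR myotube 2 against 434 CPM in myotube 1. Eda2r, which lies on the X chromosome, held 252 against 58.3 CPM and 449 against 167 CPM. Zmat3, an RNA-binding target that promotes growth arrest, held 73.6 against 18.0 CPM and 57.1 against 12.9 CPM. Trp53inp1, a nuclear cofactor of p53, held 244 against 50.4 CPM and 231 against 75.3 CPM. Each of these genes was thus more than 2-fold apart between libraries of 1 genotype and stage. Trp53 RNA did not follow them: it was the higher in the libraries with low targets, by 0.417 log2 units in myoblasts. Rrm2b, which supplies nucleotides for repair, Sesn1, Plk3, Dram1 and Tigar were also higher in both, as was Ddb2, whose 2 myoblast values both round to 3.52 CPM.

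Other measures separated the same libraries. The libraries with low target levels, dICR/dICR myoblast 2 and dICR/dICR myotube 1, held more Ddx3y (63.1 and 104 CPM) and less Xist (57.5 and 38.0 CPM) than dICR/dICR myoblast 1 and myotube 2 (Ddx3y 14.5 and 20.5 CPM, Xist 428 and 182 CPM). Their 15 proliferation markers were also higher, at a mean log2 CPM of 7.34 and 7.45 against 7.08 and 6.30. Wild-type myotube 1, with the highest Ddx3y of all libraries (176 CPM), had the highest mean of the 29 targets apart from Trp53 and Gtse1 among wild-type myotubes, 5.70 log2 CPM against 5.12 to 5.52 in the others. The part of these measures in the pattern was not tested, and no label separates the libraries of a pair.

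**Figure D5:**
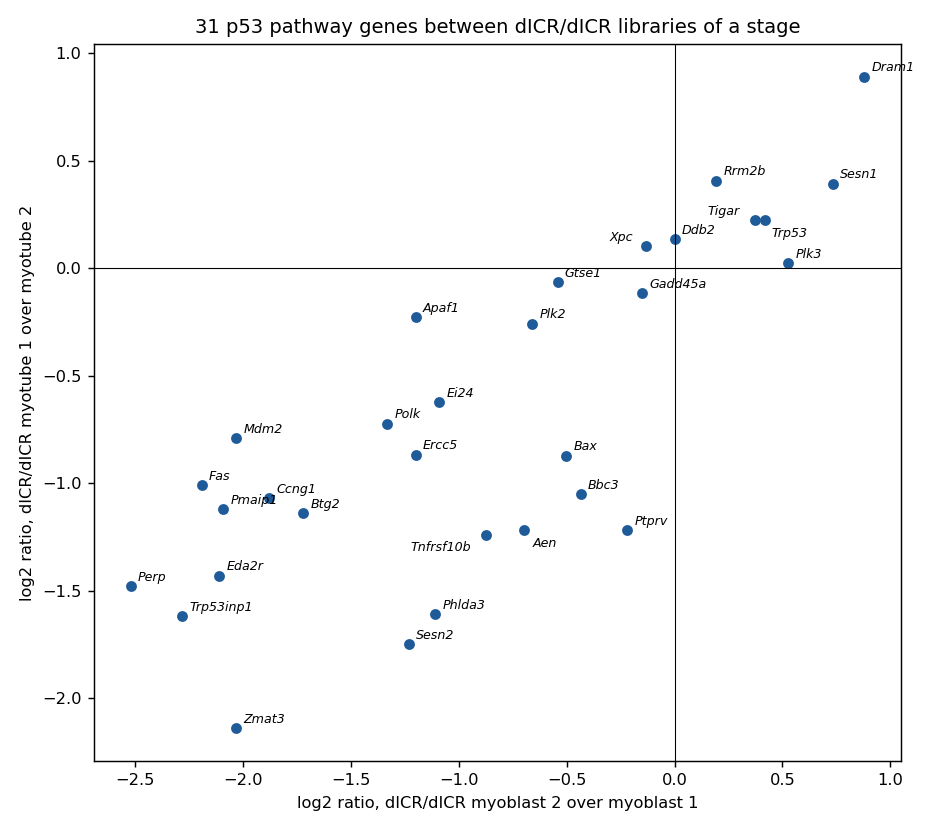
Log2 ratio of each member between the 2 dICR/dICR myoblast libraries (horizontal, library 2 over 1) and between the 2 dICR/dICR myotube libraries (vertical, library 1 over 2). The lower left holds the 23 members that were lower in both, from Gadd45a near 0 to Perp, Trp53inp1 and Zmat3, and the upper right holds the 7 that were higher in both.

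Wild-type replicates varied too. Between wild-type myoblasts 1 and 2 and between wild-type myoblasts 3 and 4, no member differed by more than 2-fold. Over all genes 0.81% were more than 2-fold lower and 0.581% more than 2-fold higher in myoblast 2 than in myoblast 1. For myoblast 4 against myoblast 3 these shares were 5.87% and 5.82%. Wild-type myotube 2 stood apart from wild-type myotube 1, with 24 members lower, 8 more than 2-fold lower and 4 more than 2-fold higher (median log2 ratio -0.648, against 0.0945 over all genes). Over all genes 45.3% were lower, 5.22% more than 2-fold lower and 21.2% more than 2-fold higher. Eda2r (-2.07), Trp53inp1 (-1.70), Ccng1 (-1.44) and Zmat3 (-1.43) were among the lower ones. The same library had the highest proliferation markers of its group and the highest sum of fibroblast markers of all libraries (918.1 CPM, mostly Col3a1). The other fibroblast markers were each higher in some other library. Dram1 was high there, at 4.31 CPM against 0.611 to 1.27 CPM in the other wild-type myotubes.

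The depth sets themselves coincided with differences in 8 members among wild-type libraries, by edgeR in a model that averages both stages. Perp (-2.60 ± 0.49, adjusted p = 0.00211), Trp53 (above), Plk3 (-1.52 ± 0.28, adjusted p = 0.00202), Tnfrsf10b (-1.32 ± 0.29, adjusted p = 0.00522) and Rrm2b (-1.23 ± 0.21, adjusted p = 0.00113) were lower in shallow libraries. Ptprv (1.02 ± 0.33, adjusted p = 0.0363), Gadd45a (0.81 ± 0.24, adjusted p = 0.0229) and Sesn1 (0.65 ± 0.20, adjusted p = 0.0268) were higher. Among all genes 17.2% were lower and 14.1% higher, so 5 and 3 of 31 members lie near that background. Without any 1 of the 4 wild-type myoblasts the count was 5, all lower in shallow libraries. In wild type the Y-linked Ddx3y also separates the sets, at 27.6 to 176 CPM in deep libraries and 0.153 to 0.462 CPM in shallow ones, so depth set and Y-linked expression cannot be told apart in these libraries. Xist did not separate them, at 87.78 to 296.4 CPM in deep and 220.1 to 302.7 CPM in shallow ones. Wild-type myoblasts of the sets differed in other measures too. Differentiating muscle markers summed to 2563 and 2527 CPM in deep and 11520 and 12100 CPM in shallow myoblasts. Proliferation markers summed to 3268 and 3060 CPM in deep and 1323 and 1239 CPM in shallow ones. H19 stood at 2607 and 2345 against 18489 and 17485 CPM. In wild-type myotubes the sets overlapped in each of these measures. Their part was not tested.

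Beyond the 31 genes, 21 regulators of p53 and 29 further targets were examined from lists written by name, with earlier results of these data known. In wild-type differentiation 13 of the 29 further targets fell and 1 rose, with a median of -0.668, against the 10.2% and 8.86% of all genes given above. The smallest p was that of Trp53i11 (-3.23 ± 0.35, adjusted p = 0.000425), followed by Ckap2, a spindle protein gene (-2.59 ± 0.34, adjusted p = 0.000907), and Lrdd, the older name of Pidd1, which assembles the PIDDosome (-2.76 ± 0.40, adjusted p = 0.00128). Siva1 (-1.83), Ephx1 (-1.67) and Bid (-1.14), of which Siva1 and Bid promote death, also fell. Of the 21 regulators 3 fell (the checkpoint kinase genes Chek1 and Chek2, and Trim24, a ubiquitin ligase for p53) and 1 rose (Mdm4, a relative of Mdm2 that blocks p53), and the target that rose was Lif, a cytokine gene. These 5 names fall outside the rule for named genes and were chosen after their values were seen. The regulator counts lie near the background. The regulators had 13 positive and 8 negative values and a median of 0.181, while the further targets, like the 31 members, had a negative median.

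For genotype none of these 50 genes was called by edgeR over all libraries in either stage. In myoblasts 8 targets (27.6%) and 1 regulator (4.76%) had an unadjusted p under 0.05, against 12.1% of all genes. In myotubes 11 targets (37.9%) and 2 regulators (9.52%) did, against 16.8% of all genes. DESeq2 called 4 and 7 of the 50. Within the shallow set 5 of the 50 fell in dICR/dICR myoblasts (3.31% of all genes did): the matrix glycoprotein gene Thbs1 (-3.25 there, -2.94 over all libraries), Hexim1 (-1.17 there and over all libraries), Rprm, which arrests cells before mitosis (-2.58 and -2.28), Gm16197, the older name of Trp53cor1 (-1.84 and -1.32), and Igfbp3, which binds insulin-like growth factors (-1.35 and -0.78). Within the deep set 4 of the 50 rose in dICR/dICR myotubes (1.81% of all genes did): the checkpoint kinase gene Chek1 (2.10, and 2.23 over all libraries), Fdxr (1.75 and 1.53), the iron reductase gene Steap3 (1.47 and 1.31) and Trp53i11 (1.25 and 1.21). Chek1 is itself higher in dividing cells. The proliferation markers, at 1425 and 3113 CPM in dICR/dICR myotubes and 93.5 to 1542 CPM in wild type, overlapped between the genotypes, and their part was not tested.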

How the data were processed

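The deposited table holds raw read counts per gene for 13 libraries, which the authors made with TopHat2 on mm9 and HTSeq, per the submitters' processing notes. The sources used here give no versions, gene annotation or strand setting, nor which library was run on which sequencing platform. RNA was depleted of ribosomal RNA, per the labels' protocols. Total counts are given with the results.

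Counts were analysed in R 4.3.3 with edgeR 4.0.16: filterByExpr (minimum count 10, minimum total 15) left 16537 genes, library totals were scaled by TMM, and 1 quasi-likelihood fit took 4 group means over the 13 libraries. A gene was called at a two-sided p under 0.05 after Benjamini-Hochberg adjustment over all genes tested. A model with 6 means, in which wild-type groups were split by total (over or under 20 M counts), gave the values within a depth set. Log2 fold changes are given with standard errors (SE), and CPM per library without a prior count. Levels per kilobase used exon lengths of the GENCODE M21 annotation. Other coordinates are not printed because that annotation is of a later build than mm9. No replicate pair held identical counts, and replicates differed by more than counting error (chi-square over its degrees of freedom 4.674 to 368.8).

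The members, gene lists and tests were chosen with earlier results of these data known. A member got its full statistics in a comparison when called over all libraries or within a set, or when among the 5 largest changes, up to 12 by smallest p; of the further genes, up to 6 called ones were named. The fit was tested on simulated counts, where it recovered fold sizes but missed many of the changed genes. Alternatives were DESeq2 1.42.0, other scalings and filters, the depth set as a term, a replicate block and each library left out.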

Additional observations from a re-analysis of the deposited data

Results flagged for a closer look

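Dram1 stood at 4.308 CPM in wild-type myotube 2, against 0.6111 to 1.274 CPM in the other 4 wild-type myotubes, a gap of 0.821 of the group's range, which is past the 95% limit of Dixon's test for an outlying sample. The test was run on each member in the 2 wild-type groups, 62 groups in all, and this was the 1 result past the limit. Chance alone gives about 1 in 20, so 1 in 62 is fewer than chance would give. Each of these groups mixes deep and shallow libraries. The same library had the highest proliferation markers of its group (a sum of 1542 CPM). It also had the highest levels of the fibroblast marker Col3a1 (888.5 CPM, against 174.1 to 341.8 CPM) and of the myoblast marker Msc (12.81 CPM, against 0.09618 to 2.444 CPM). The other fibroblast markers, Col1a1, Pdgfra, Dcn, Lum and Thy1, were each higher in another wild-type myotube. Of the other myoblast markers, Myf5 and Pax7 were highest there, Myod1 and Cdh15 were not, and Des was lowest there (1599 CPM). The part of these markers in the Dram1 value was not tested.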

How the results depend on the processing

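Of the values of single named genes under alternatives, 669 kept their direction and their side of the threshold, 54 lost a call, 23 gained one and 4 reversed, and of the counts 195 stayed within 1.5 times the reported count and 42 did not. Library size alone, RLE factors, no filter and a filter of at least 1 CPM in 4 libraries moved no count by that much. DESeq2 called 4 members in myoblasts by genotype (0 reported), 7 in myotubes (2 reported), and of the 50 further genes 4, 7 and 4 in the genotype effects in myoblasts and myotubes and dICR/dICR differentiation (0 reported for each). With the depth set as a term the members called were 2, 4 and 3 in those comparisons and the further genes 4, 1 and 8. Over all 16537 genes tested, 333, 425 and 1262 were then called. The depth term reversed the difference between the differentiation changes of Perp (-1.22) and Plk3 (-0.54) and the Trp53 change in dICR/dICR (-1.09). Within the shallow set 4 members and 5 further genes were called by genotype in myoblasts, and 6 and 8 in wild-type differentiation (11 and 18 reported). Within the deep set 4 and 4 were called by genotype in myotubes. The cause of these shifts was not tested.

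With 1 library left out, members called ranged from 7 to 13 in wild-type differentiation, from 0 to 4 by genotype in myotubes, from 5 to 10 between depth sets, and stayed at 0 in the other comparisons. Further genes called ranged from 12 to 18 in wild-type differentiation and from 0 to 5 by genotype in myotubes. For counts with a library left out, here and above, no share of all genes is given, so they cannot be set against a background. The Perp change in dICR/dICR ranged from -3.50 to 0.33. Sesn1 was not called in wild-type differentiation with library size alone (0.86, adjusted p = 0.0838).

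Replicate numbers are shared between groups, but no label says that they mark a shared animal or culture. Deviations of same-numbered wild-type myoblasts and myotubes had correlations of 0.427, 0.518, -0.411 and 0.517. The negative one, for number 3, joins a shallow myoblast to a deep myotube, and the others join libraries of the same depth set. These correlations therefore cannot show whether the numbers pair the samples. With the replicate block 8 members were called in wild-type differentiation, 0 by genotype in myotubes and 0 between depth sets. With the dICR/dICR numbers crossed, an alternative added after the data were seen (correlation -0.388 as numbered), 0 members were called by genotype in myotubes and 1 in dICR/dICR differentiation, and of the further genes 1 in the genotype effect in myoblasts and 4 in dICR/dICR differentiation. No share of all genes is given for the replicate block or the crossed numbers, so these counts cannot be set against a background. At 5.313 to 10.91 M counts in shallow libraries, Perp, Dram1, Ddb2 and Fas rest on few counts, and 2 libraries per dICR/dICR group limit each genotype result.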
